A study of Mus musculus with 36 samples.

Results

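Chemokines are small secreted proteins that guide white blood cells, and their receptors are G protein-coupled receptors on the cells that respond. The genes described here are the rows of a stria vascularis expression table whose symbol is Ccl, Ccr, Cxcl or Cxcr followed by a number and at most a single lower case letter. There were 52 such genes among the 48709 of the table, 36 ligands and 16 receptors. Of these, 32 reached 0.1 RPKM in at least 3 of the 9 libraries, 24 ligands and 8 receptors, and were compared between ages together with the 15806 genes that passed the same filter. RPKM divides the reads of a gene by the length of its transcript and by the depth of the library, so levels can be compared between genes.

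The stria vascularis is the vascular epithelium of the cochlear lateral wall that makes the endocochlear potential, and the study asked how its gene expression changes as CBA mice age. Its cells (SVCs) were collected at 1 month, at 9 months and at 26 months. The labels name the strain CBA and the study CBA/J, with no mutant allele, transgene or treatment at any age. Libraries A, B and C of each age were each made from about 1000 marginal, intermediate and basal cells, pooled from the 4 cochleae of 2 mice, which could be male or female. The labels describe these as independent samples, whereas the account of library preparation in the study describes fewer biological replicates with technical repeats, so every SD and p-value measures only the spread between these libraries, which may be technical.

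Markers of the labelled cells were present at every age: Kcnq1 of marginal cells between 154 and 170 RPKM, Dct of intermediate cells between 3146 and 3428, and Cldn11 of basal cells between 25.1 and 52.2 (means of 3 libraries). The number of genes at 0.1 RPKM or more in a library was 14818 to 15315. Read counts behind the values are unknown, so no interval for counting error is given, and all values are multiples of 0.025 RPKM, which makes levels near 0.1 coarse. Some libraries of an age were nearly identical, with a coefficient of variation of 1.17 to 1.92% over 450 abundant genes for B and C at 1 month, A and C at 9 months, and A with B and with C at 26 months. The remaining pairs differed by 2.05 to 9.72%. Averaging the nearly identical libraries leaves 5 samples, 1 of them at 26 months, where B and C are joined through A. The spread in that fit comes from the younger ages only, so its log2 fold changes are given below without p-values. The sex of each pool is not given. Xist, which marks the inactive X chromosome of females, was 0.225 to 0.3 RPKM at 1 month, 1.18 to 2.05 at 9 months and 0.55 to 0.625 at 26 months. Ddx3y, a gene of the Y chromosome, was 6 to 7.05, 4.45 to 7.55 and 12.2 to 12.3 RPKM at these ages. Age and the sex make-up of the pools therefore cannot be told apart.

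The chemokine system is usually divided by the spacing of the first cysteines into CC and CXC ligands, and by use into homeostatic ligands, made steadily to place cells in tissues, and inflammatory ligands, induced by cytokines, interferons or microbial products. Several ligands often share a receptor, and a receptor often accepts several ligands. Resident perivascular macrophages line the strial capillaries and are among the cells that can send and receive such signals there.

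The summed level of the 52 genes was 23.7 ± 0.620 RPKM (mean ± SD, n = 3 libraries, as for all means that follow) at 1 month, 33.5 ± 0.301 at 9 months and 40.7 ± 1.06 at 26 months. Most of it came from few ligands. Cxcl16 alone had 16.0 ± 0.487 RPKM at 26 months, and only 10 of the 32 genes reached a mean of 1 RPKM at any age. The receptors summed to 2.28 ± 0.025, 2.15 ± 0.075 and 4.34 ± 0.126 RPKM at the 3 ages in turn. The CXC receptors had a higher sum at each older age, 0.792 ± 0.0382, 1.43 ± 0.025 and 3.18 ± 0.0946 RPKM, whereas the CC receptors were lowest at 9 months, with 1.48 ± 0.0629, 0.725 ± 0.0661 and 1.16 ± 0.0629.

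Of the 20 genes under the filter, 7 were listed at 0 in every library, 9 were above 0 but never reached 0.1 RPKM, and 4 reached it in fewer than 3 libraries. Those 4 were the lymphoid tissue ligand Ccl21a, which had 0.125, 0.1 and 0.075 RPKM at 26 months and was listed at 0 before, the myeloid cell attractant Ccl9, the neutrophil attractant Cxcl3, and Ccr9, the receptor of Ccl25. Just inside the filter were Cxcl9, with 0.125, 0.1 and 0.125 RPKM at 26 months, and Ccl24, with 0.1 in each 1-month library. Among the 32, 12 were at 0.1 RPKM or more in all 9 libraries, while 6 passed through a single age, 5 of them at 26 months. Ccl21a and Ccl27a have near-identical gene copies, so their values are uncertain.

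Between 26 and 9 months, 12 of the 32 genes were called higher and 1 was called lower at 26 months. Called means, here and throughout, that the adjusted p of limma did not exceed 0.10 and that the log2 fold change was 1 or more in size. Among all genes tested, 3.28% were called higher and 4.05% lower. The 12 were 10 ligands (Ccl2, Ccl3, Ccl4, Ccl8, Ccl12, Ccl17, Cxcl2, Cxcl9, Cxcl11 and Cxcl17) and 2 receptors (Cxcr3 and Cxcr6), and the gene called lower was Ccl11. For 5 of the 12 (Cxcl2, Cxcl9, Cxcl17, Cxcr3 and Cxcr6) the filter was reached at 26 months only, so that they had to differ, and the other 7 also reached 0.1 RPKM in a library of a younger age. For Ccl17 that library was 1-month A, and no 9-month library reached 0.1 RPKM, so the filter favoured its call too. Most of these levels were low. Of the 12, only Cxcr6 reached a mean of 1 RPKM, and with a pseudocount of 1 RPKM in place of 0.1, only Cxcr6 and Ccl11 remained called. The median log2 fold change was 0.76 over the 32 genes and −0.03 over all genes tested.

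Between 9 months and 1 month, 5 genes were called higher (Ccl11, Ccl19, Cxcl12, Cxcl14 and Cxcr4) and 2 lower (Ccl12 and Ccr6), against 10.1% higher and 1.47% lower of all genes. Between 26 months and 1 month, 14 were called higher and 1, Ccl11, lower, against 9.93% and 2.51%. The 14 include the 5 genes that reached the filter at 26 months only, which again had to differ. They also include Ccl8, Ccl19 and Cxcl13, which reached 0.1 RPKM in no 1-month library. The filter thus favoured their calls against 1 month, also that of Ccl19 at 9 months. In these comparisons the older age was shifted as a whole: the median over all genes was 0.27 for 9 against 1 month and 0.24 for 26 against 1 month on the log2 scale, against medians of 0.04 and 0.86 over the 32 genes. With quantile normalization, which takes that shift out, the splits between higher and lower were 2 and 3 for 9 against 1 month and 12 and 2 for 26 against 1 month. With a pseudocount of 1 RPKM, only Ccl11 remained called for 9 against 1 month, and only Cxcl14 and Cxcr6 for 26 against 1 month. Over the 3 ages, 29 of the 32 passed the F-test, against 86.3% of all genes, so passing it said little about these genes. Ccl7, Ccl25 and Ccr10 did not pass. The mean was highest at 26 months for 23 genes, at 9 months for 6 and at 1 month for 3. The 23 include Ccl7, Ccl25, Ccr10 and the 5 genes that reached the filter at 26 months only. No such count was made over all genes, so these numbers cannot be read as a trait of the family.

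**Figure D1:**
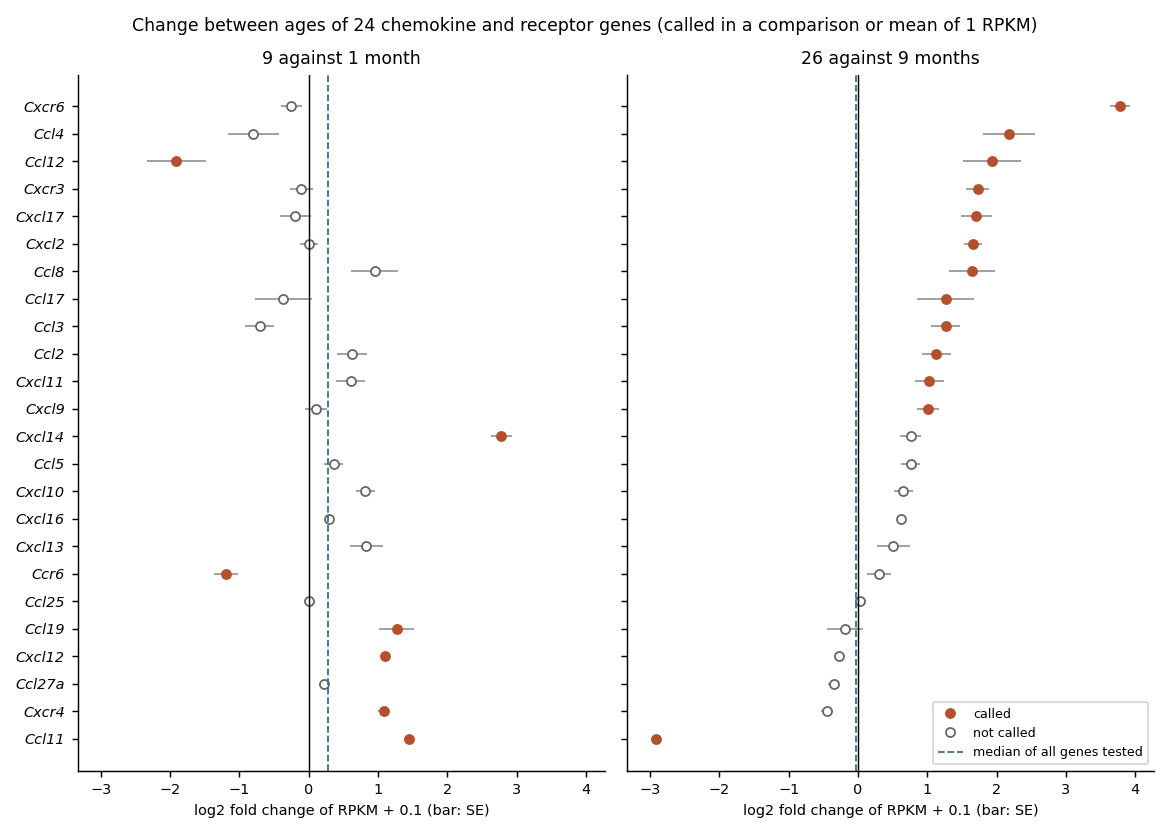
Log2 fold change of RPKM + 0.1 with its standard error for the 24 genes that were called in at least 1 comparison or reached a mean of 1 RPKM, 9 against 1 month on the left and 26 against 9 months on the right, in the order of the right panel. The other genes that passed the filter were not called in any of the 3 comparisons and are not drawn, so the share of filled points is not that of the family. Filled points are called and the dashed line is the median of all genes tested. Cxcr6 stands at the top right with 3.78 and Ccl11 at the bottom with −2.92, after 1.45 on the left.

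Cxcr6, the receptor of the membrane-bound ligand Cxcl16 and a homing receptor of memory T cells and other lymphocytes, had the largest fold change of the 32 genes. It had 0.05, 0.075 and 0.075 RPKM in libraries A, B and C at 1 month, 0.025, 0.075 and 0.025 at 9 months, and 1.8, 1.83 and 1.85 at 26 months. All 26-month libraries were far above the others, and the younger ages overlapped. The log2 fold change was 3.78 ± 0.15 (SE) for 26 against 9 months (limma adjusted p = 1.05e-07), or 3.70 with near-identical libraries averaged. It was 3.53 ± 0.15 against 1 month, or 3.29 relative to the median of all genes. Cxcr6 was called in all 24 alternative analyses of both comparisons. The filter was reached at 26 months only, so a difference had to follow and the p-value adds no support of its own. Cxcr6 lies on chromosome 9 from 123806475 to 123811760 on the plus strand (GRCm38), within an intron of Fyco1 on the other strand, with no shared exon bases. Whether strand was used in counting is not given in the sources used here. Fyco1 had 2.83, 7.68 and 8.18 RPKM at the 3 ages, and the part of its reads in the values of Cxcr6 was not tested.

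Cxcl16 was the most abundant gene of the family at every age. Its libraries had 8.33, 8.7 and 8.3 RPKM at 1 month, 10.4, 10.4 and 10.3 at 9 months, and 15.85, 16.6 and 15.65 at 26 months, and the ages did not overlap. The log2 difference of 0.62 ± 0.04 for 26 against 9 months had a limma adjusted p of 2.06e-06 but was under the fold threshold, as was 0.92 ± 0.04 for 26 against 1 month. The ligand thus had 8.44 ± 0.224 RPKM at 1 month, when its receptor had 0.0667 ± 0.0144. Cxcl16 shares 552 of its 3021 exon bases with Zmynd15 on the other strand, which had 0.0667, 0.133 and 0.225 RPKM.

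Cxcr3, an X-linked gene, encodes the receptor of the interferon-inducible ligands on activated T and NK cells and had at most 0.025 RPKM in any 1-month or 9-month library. At 26 months it had 0.3, 0.25 and 0.225 RPKM, a log2 fold change of 1.73 ± 0.17 against 9 months (limma adjusted p = 2.38e-05). Like Cxcl9, it reached the filter at 26 months only, so it had to differ and the p-value adds no support of its own. Its ligands Cxcl9, Cxcl10 and Cxcl11 lie side by side within 44.1 kb of chromosome 5. Cxcl9 was listed at 0 at 1 month, had 0.025 RPKM in a single 9-month library and 0.125, 0.1 and 0.125 at 26 months. It was called at 26 months against both younger ages. The call against 9 months was lost when 9-month A or B or 26-month A or C was left out and with quantile normalization or median of ratios scaling, and the call against 1 month was kept in these settings.

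Cxcl10 was the most abundant ligand of Cxcr3. It had 0.35, 0.4 and 0.4 RPKM at 1 month, 0.8, 0.6 and 0.875 at 9 months, and 1.15, 1.15 and 1.43 at 26 months. The ages did not overlap, and each older age was higher. The log2 fold change was 1.47 ± 0.14 for 26 against 1 month (limma adjusted p = 9.30e-06), 1.23 relative to the median of all genes, while the steps of 0.82 ± 0.14 to 9 months and 0.65 ± 0.14 from there were under the fold threshold. Cxcl11 had 0.125, 0.05 and 0.1 RPKM at 1 month, 0.225, 0.125 and 0.225 at 9 months, and 0.45, 0.425 and 0.6 at 26 months, with all 26-month libraries above the rest. The value of 1.03 ± 0.21 on the log2 scale for 26 against 9 months stood just over the threshold and was lost without 9-month B or 26-month C and with array weights. Both genes lie inside Art3 on the other strand, which had 0.575, 0.808 and 1.23 RPKM, and Cxcl10 shares 133 exon bases with it; the part of Art3 reads in their values was not tested.

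**Figure D2:**
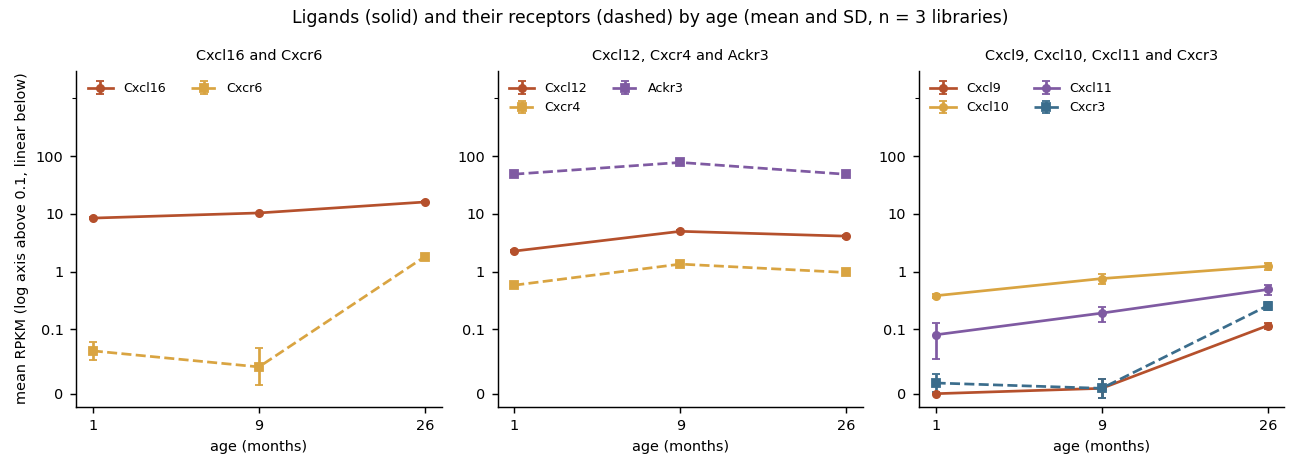
Mean RPKM by age of ligands (circles, solid lines) and their receptors (squares, dashed lines) with SD over 3 libraries, on an axis that is logarithmic above 0.1 and linear below. Cxcr6 goes from 0.0417 RPKM at 9 months to 1.83 at 26 months under a ligand between 8.44 and 16.0, and Cxcr3 from 0.00833 to 0.258.

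Some markers of T and NK cells were also higher in the 26-month libraries. Of the 12 listed, 8 passed the filter. Of these, 4 were called higher at 26 than at 9 months and none lower, against 3.28% and 4.05% of all genes. The summed level was 8.93 to 9.43 RPKM at 1 month, 9.23 to 9.9 at 9 months and 11.5 to 12.1 at 26 months, most of it from Cd2, which was not called. Cd3e, a subunit of the T cell receptor complex, had 0.00833 ± 0.0144, 0.0417 ± 0.0382 and 0.475 ± 0.115 RPKM. Cd3e reached the filter at 26 months only, so it had to differ. Cd3g had 0.00833 ± 0.0144, 0.125 ± 0.0661 and 1.41 ± 0.181 RPKM. Cd8a was listed at 0 at 1 month and had at most 0.0167 RPKM later. In bulk samples, more cells of a type and more RNA per cell cannot be told apart, and the part of these cells in the receptor levels was not tested.

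The ELR CXC ligands draw neutrophils through Cxcr2. Cxcl2 was listed at 0 in all 1-month and 9-month libraries and had 0.225, 0.2 and 0.225 RPKM at 26 months, where it was called (limma adjusted p = 6.15e-06 against 9 months). It reached the filter at 26 months only, so it had to differ. Its neighbour Cxcl1, 10.8 kb away, ranged from 0.05 to 0.25 RPKM, with means of 0.0917, 0.233 and 0.217, and was not called. Cxcr2 ranged from 0 to 0.1 RPKM, was listed at 0 in all 9-month libraries and was not called. The neutrophil markers summed to 100 to 111 RPKM at 1 month, 8.48 to 10.7 at 9 months and 27.8 to 28.3 at 26 months. Of the 15 that passed the filter, 13 were called lower at 9 months than at 1 month, against 1.47% of all genes. At 26 months 10 were called higher than at 9 months, against 3.28% of all genes. Between 26 months and 1 month 9 were called lower and 1 higher, against 2.51% and 9.93% of all genes, with a median log2 fold change of −1.57. Ngp had 15.75, 1.39 and 5.69 RPKM and S100a8 28.6, 2.08 and 5.08, whereas Elane had 1.18, 0.175 and 1.32, and the part of these cells in Cxcr2 was not tested.

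The promoters of the CXC genes are shown because these members moved in different ways while some share a sequence element. For 37 of the 52 genes, 44 promoters were found in the RefSeq set (GRCm38.p6, 250 bases before to 50 after the start), and none of the searches used the expression values. The consensus site of NF-kappaB, the transcription factor of many inflammatory genes, was found in 9 of these 44 promoters, those of 9 genes, and in 4.51% of all 32851 promoters. An interferon-type element, GAAANNGAAA on either strand, was found in 3 of the 44, those of Cxcl10, Cxcl14 and Ccl19, and in 3.44% of all promoters. Matches to these elements are in capitals in the following 5 promoters, written 5′ to 3′ on the strand of the gene.
Cxcl10, chr5:92348840-92349139, minus strand: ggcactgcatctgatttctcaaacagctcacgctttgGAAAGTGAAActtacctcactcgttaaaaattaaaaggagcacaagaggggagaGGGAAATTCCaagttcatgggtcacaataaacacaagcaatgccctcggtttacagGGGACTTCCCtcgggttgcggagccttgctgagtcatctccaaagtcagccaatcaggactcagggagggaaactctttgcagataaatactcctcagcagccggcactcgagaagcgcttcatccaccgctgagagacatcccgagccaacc
Cxcl1, chr5:90890995-90891294, plus strand: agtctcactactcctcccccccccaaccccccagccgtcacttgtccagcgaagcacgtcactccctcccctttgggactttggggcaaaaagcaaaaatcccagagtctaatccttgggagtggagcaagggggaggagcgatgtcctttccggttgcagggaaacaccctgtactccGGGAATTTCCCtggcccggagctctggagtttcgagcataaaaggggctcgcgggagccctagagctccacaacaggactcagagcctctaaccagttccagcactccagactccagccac
Cxcl2, chr5:90903649-90903948, plus strand: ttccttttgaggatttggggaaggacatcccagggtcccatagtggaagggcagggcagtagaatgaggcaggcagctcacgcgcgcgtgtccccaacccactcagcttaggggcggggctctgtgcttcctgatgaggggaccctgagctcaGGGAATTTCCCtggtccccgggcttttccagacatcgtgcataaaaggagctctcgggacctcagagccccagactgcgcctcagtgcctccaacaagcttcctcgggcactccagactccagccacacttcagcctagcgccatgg
Cxcl14, chr13:56296502-56296801, minus strand: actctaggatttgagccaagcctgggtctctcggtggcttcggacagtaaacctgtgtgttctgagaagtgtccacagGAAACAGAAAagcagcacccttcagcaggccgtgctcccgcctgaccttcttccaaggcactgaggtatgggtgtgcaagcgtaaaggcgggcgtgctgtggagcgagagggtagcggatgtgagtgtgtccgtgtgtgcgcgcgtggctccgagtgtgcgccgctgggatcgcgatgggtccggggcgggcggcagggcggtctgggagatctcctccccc
Cxcr6, chr9:123806227-123806526, plus strand: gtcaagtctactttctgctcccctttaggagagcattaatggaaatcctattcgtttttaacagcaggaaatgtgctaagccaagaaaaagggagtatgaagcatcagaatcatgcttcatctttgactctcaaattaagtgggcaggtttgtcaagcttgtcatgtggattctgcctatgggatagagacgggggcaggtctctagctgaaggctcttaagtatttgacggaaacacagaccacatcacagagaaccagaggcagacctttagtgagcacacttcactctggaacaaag

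The same run of letters marked in Cxcl1 and Cxcl2, GGGAATTTCCC, holds the consensus on both strands in overlapping matches, although Cxcl2 was called at 26 months and Cxcl1 was not. Cxcl10 held 2 matches, 159 and 103 bases before its start, and an interferon-type element 213 bases before it. Cxcr6 held neither element within these 300 bases. A match describes the letters only.

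Cxcl12 and its receptor Cxcr4 were both called higher at 9 months than at 1 month. Cxcl12 is the homeostatic ligand that retains stem cells and lymphocytes in tissues, and it had 2.2, 2.33 and 2.28 RPKM at 1 month, 5.15, 4.75 and 5.05 at 9 months, and 4.08, 3.9 and 4.35 at 26 months. The ages did not overlap, and 1 month stood well below the others. Its log2 fold change was 1.10 ± 0.06 for 9 against 1 month (limma adjusted p = 2.97e-07), or 0.83 relative to the median of all genes, and the call was lost with quantile normalization, median of ratios scaling and the length trend removed. Cxcr4, its signalling receptor, had 0.625, 0.525 and 0.6 RPKM at 1 month, 1.35 in every 9-month library, and 0.875, 1.03 and 1 at 26 months. It followed the same order of ages without overlap, with a log2 fold change of 1.09 ± 0.08 for 9 against 1 month, or 0.82 relative to the median. The call of Cxcr4 was lost with a pseudocount of 1 RPKM, quantile normalization and median of ratios scaling. Ackr3, the atypical receptor that binds and removes Cxcl12, was far more abundant, with 48.5 ± 1.66, 77.5 ± 0.815 and 48.3 ± 0.379 RPKM, and was not called.

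Cxcl14, a ligand made by epithelia and fibroblasts, had 0.075, 0.025 and 0.1 RPKM at 1 month, 1.03, 0.975 and 1.08 at 9 months, and 1.85, 1.8 and 1.78 at 26 months. The ages did not overlap and each was higher than the one before. Its log2 fold change of 2.78 ± 0.15 for 9 against 1 month (limma adjusted p = 3.79e-07) was the largest of the 32 genes in that comparison. It was 2.51 relative to the median and 2.72 with near-identical libraries averaged. The 0.76 ± 0.15 from 9 to 26 months was under the threshold. With a pseudocount of 1 RPKM the change to 9 months was 0.93 and not called. Cxcl13, the B cell ligand of Cxcr5, was listed at 0 at 1 month, had 0.15, 0.05 and 0.05 RPKM at 9 months and 0.1, 0.225 and 0.15 at 26 months. It was called for 26 against 1 month, a call that the filter favoured because no 1-month library reached 0.1 RPKM. The 9-month and 26-month libraries overlapped, and Cxcr5 never passed 0.05 RPKM. Cxcl17, a ligand of mucosal tissues, had at most 0.05 RPKM in a younger library and 0.25, 0.35 and 0.175 at 26 months, a log2 fold change of 1.70 ± 0.22 against 9 months (limma adjusted p = 1.63e-04). It too reached the filter at 26 months only, so it had to differ. Cxcl17 lies with all its 761 exon bases inside 4732471J01Rik on the other strand, with no shared exon bases. That gene had 0.15, 0.283 and 0.225 RPKM at the 3 ages, and the part of its reads in the values of Cxcl17 was not tested.

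**Figure D3:**
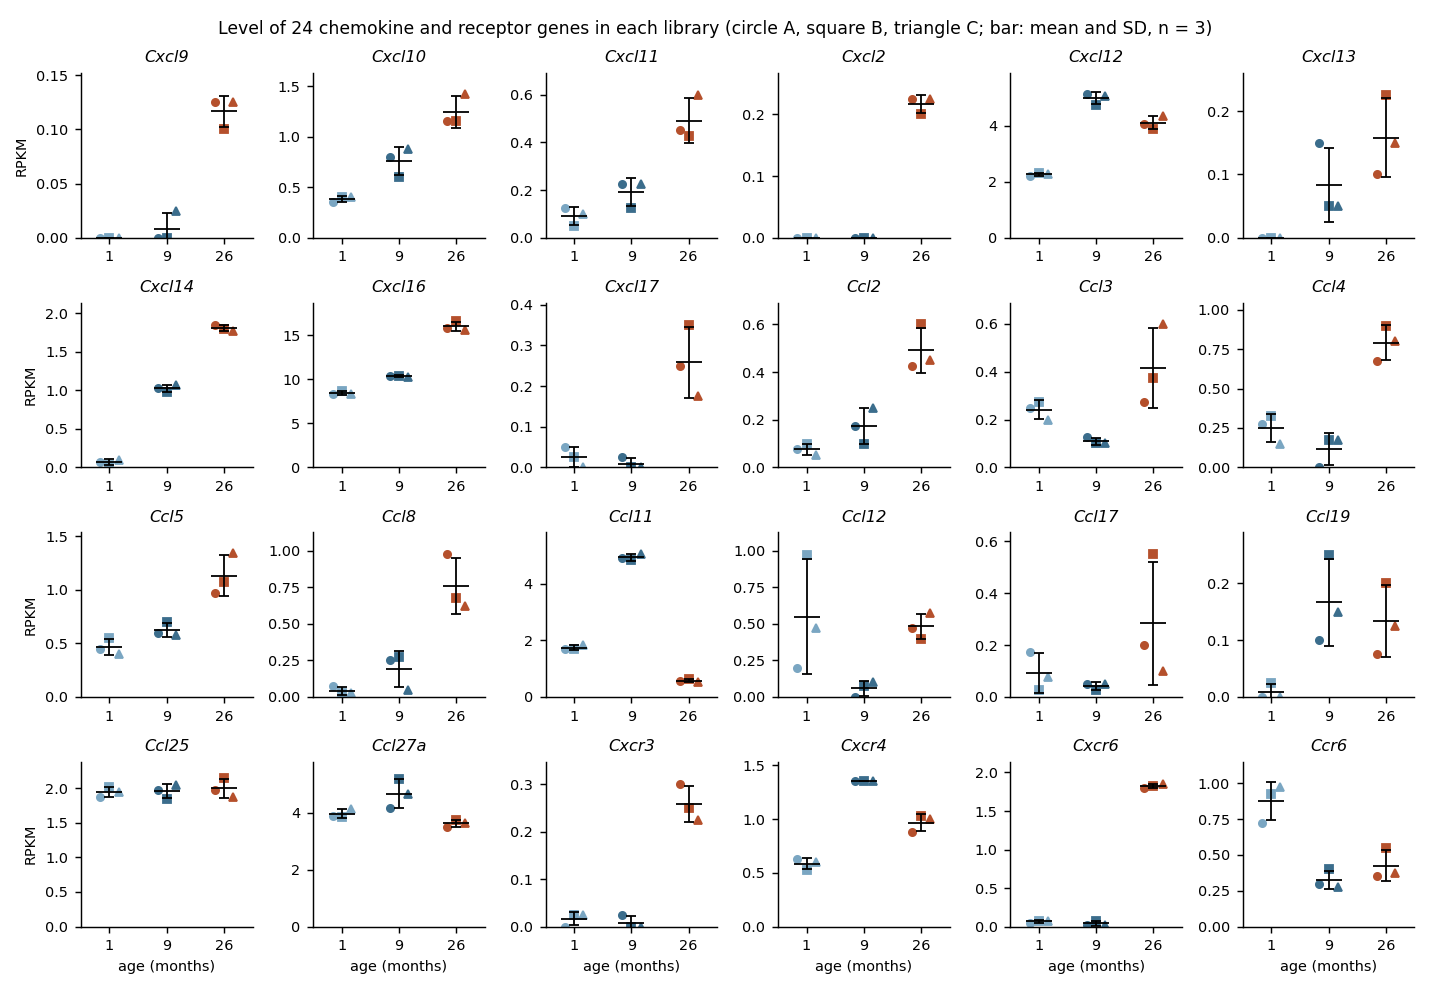
RPKM in each library of the 24 genes that were called in at least 1 comparison or reached a mean of 1 RPKM, on axes that start at 0 and differ between panels. Circles, squares and triangles are libraries A, B and C, and bars give the mean and SD. Ccl11 peaks at 9 months near 5 RPKM, Cxcr6 appears at 26 months at 1.8 to 1.85, and Ccl25 stays between 1.85 and 2.15.

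Ccl11, or eotaxin, the eosinophil attractant that acts through Ccr3, was called in all 3 comparisons. It had 1.68, 1.7 and 1.85 RPKM at 1 month, 4.9, 4.83 and 5.05 at 9 months, and 0.55, 0.625 and 0.525 at 26 months, with no overlap between ages. The 9-month mean was 8.69 times the 26-month mean, a log2 fold change of −2.92 ± 0.07 for 26 against 9 months (limma adjusted p = 7.41e-09), called in all 24 alternatives. With near-identical libraries averaged it was −2.91. The rise of 1.45 ± 0.07 from 1 to 9 months was 1.18 relative to the median of all genes, and its call was lost with quantile normalization (0.98). Ccr3 never passed 0.025 RPKM. Markers of spiral ligament fibrocytes, the connective tissue cells beside the stria, also had their highest sum at 9 months. Their summed level was 150 to 151 RPKM, then 601 to 635, then 274 to 276, much of it from Coch with 50.5, 335 and 157 RPKM. Of 13 markers, 6 were called higher and 1 lower at 9 months than at 1 month, against 10.1% and 1.47% of all genes. At 26 months 10 were called lower and none higher than at 9 months, against 4.05% and 3.28% of all genes. Between 26 months and 1 month, where Ccl11 was also called lower, 4 markers were called lower and 1 higher, against 2.51% and 9.93% of all genes. The median log2 fold change of the 13 was −0.33. None was listed at 0. The markers of basal cells, of marginal cells, and of pericytes and smooth muscle also had their highest sums at 9 months, whereas those of capillary endothelium were highest at 26 months. Basal cell markers summed to 424 to 430, 905 to 942 and 489 to 497 RPKM at the 3 ages. Of 6 tested, 4 were called lower and none higher at 26 than at 9 months, against the same 4.05% and 3.28% of all genes. The part of any of these cells in the level of Ccl11 was not tested.

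Ccl11 lies in a row of CC ligand genes on chromosome 11, from Ccl2 at 82035571 to the end of Ccl1 at 82305690. Ccl12, a monocyte attractant 38.9 kb from Ccl11, was called in the opposite directions. It had 0.2, 0.975 and 0.475 RPKM at 1 month, 0, 0.075 and 0.1 at 9 months, and 0.475, 0.4 and 0.575 at 26 months, lowest in every 9-month library. On the log2 scale it changed by −1.91 ± 0.42 for 9 against 1 month and 1.93 ± 0.42 for 26 against 9 months (limma adjusted p = 0.00355). The latter call was lost with near-identical libraries averaged, where the log2 fold change was 1.85. Libraries within an age differed more for Ccl12 than for Ccl11.

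Ccl2, a monocyte attractant, and Ccl8 lie on either side of Ccl7, Ccl11 and Ccl12. Both were called higher at 26 months than at either younger age. Ccl2 had 0.075, 0.1 and 0.05 RPKM at 1 month, 0.175, 0.1 and 0.25 at 9 months, and 0.425, 0.6 and 0.45 at 26 months. The 26-month libraries stood above all others, while the younger ages touched at 0.1. On the log2 scale the call of 1.13 ± 0.21 against 9 months (limma adjusted p = 0.00160) was lost without 9-month B. Ccl8 had 0.075, 0.025 and 0.025 RPKM, then 0.25, 0.275 and 0.05, then 0.975, 0.675 and 0.625, with 26 months again above the rest and 9-month C among the 1-month values. Its log2 fold change was 1.65 ± 0.33 for 26 against 9 months and 2.60 ± 0.33 for 26 against 1 month (limma adjusted p = 8.74e-05), 2.35 relative to the median. No 1-month library of Ccl8 reached 0.1 RPKM, so the filter favoured the call against 1 month. Ccl7, between them, ranged from 0.075 to 0.2 RPKM and was not called, and Ccr2, the receptor of Ccl2, never passed 0.05 RPKM.

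A second row on chromosome 11, from 83525778 to 83664683, includes ligands of Ccr1, a receptor of monocytes and other myeloid cells. Ccl4 had 0.275, 0.325 and 0.15 RPKM at 1 month, 0, 0.175 and 0.175 at 9 months, and 0.675, 0.9 and 0.8 at 26 months, all above the younger libraries, which overlapped. On the log2 scale it rose by 2.18 ± 0.37 for 26 against 9 months (limma adjusted p = 8.40e-04) and 1.38 ± 0.37 against 1 month. Ccl3 had 0.25, 0.275 and 0.2 RPKM, then 0.125, 0.1 and 0.1, then 0.275, 0.375 and 0.6, so it was lowest at 9 months and 26-month A equalled 1-month B. It was called for 26 against 9 months, with 1.26 ± 0.21, and not against 1 month. Ccl5 had 0.45, 0.55 and 0.4 RPKM, then 0.6, 0.7 and 0.575, then 0.975, 1.08 and 1.35, without overlap between ages. It was called for 26 against 1 month, with 1.12 ± 0.14 or 0.88 relative to the median. That call was lost with a pseudocount of 1 RPKM, quantile normalization, median of ratios scaling and without 26-month C. Ccr1 ranged from 0.025 to 0.175 RPKM, was lowest in mean at 9 months and was not called. Ccl6, a myeloid cell ligand of the same row, ranged from 0.325 to 0.675 RPKM and was not called.

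Ccl17, a ligand of Ccr4 on T cells, had 0.175, 0.025 and 0.075 RPKM at 1 month, 0.05, 0.025 and 0.05 at 9 months, and 0.2, 0.55 and 0.1 at 26 months. Its libraries at 26 months spread widely, its log2 fold change was 1.26 ± 0.41 against 9 months (limma adjusted p = 0.0262), and the call was lost without 26-month B. No 9-month library of Ccl17 reached 0.1 RPKM, so the filter favoured this call. Ccl24, an eosinophil attractant, ranged from 0 to 0.1 RPKM, was highest at 1 month and was not called. Among homeostatic CC ligands, Ccl19, which guides dendritic cells and lymphocytes through Ccr7, had 0, 0.025 and 0 RPKM at 1 month, 0.1, 0.25 and 0.15 at 9 months, and 0.075, 0.2 and 0.125 at 26 months. Both older ages were above 1 month and overlapped each other. It was called for 9 against 1 month, with 1.27 ± 0.25 (1.00 relative to the median), and for 26 against 1 month, with 1.08 ± 0.25 (0.84). No 1-month library reached 0.1 RPKM, so the filter favoured both calls. Both were lost with a pseudocount of 1 RPKM, and the latter also with quantile normalization and without 26-month B.

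Of the 7 homeostatic CC ligands, 4 did not pass the filter, 3 of them listed at 0 in every library. Besides Ccl19, Ccl25 and Ccl27a passed, both reached a mean of 1 RPKM and neither was called. Ccl25, the ligand of Ccr9 on gut-homing cells, had 1.88, 2.03 and 1.95 RPKM at 1 month, 1.98, 1.85 and 2.05 at 9 months, and 1.98, 2.15 and 1.88 at 26 months, with full overlap. It shares 204 of 7445 exon bases with Elavl1 on the other strand, which had 11.7 to 13.3 RPKM. Ccl27a, a skin ligand of Ccr10, had 3.9, 3.85 and 4.15 RPKM, then 4.18, 5.18 and 4.68, then 3.5, 3.75 and 3.63, and its log2 fold change of −0.35 ± 0.08 for 26 against 9 months was under the threshold. Ccr10 ranged from 0.15 to 0.275 RPKM and was not called. Ccr6, the receptor of Ccl20 on B cells and some T cells, had 0.725, 0.925 and 0.975 RPKM at 1 month, 0.3, 0.4 and 0.275 at 9 months, and 0.35, 0.55 and 0.375 at 26 months. Every 1-month library was above the older ones, and the log2 fold change was −1.20 ± 0.17 for 9 against 1 month (limma adjusted p = 2.07e-04), or −1.47 relative to the median. Ccl20 never passed 0.025 RPKM. B cell and plasma cell markers were also highest at 1 month, 23.975 to 25.85 RPKM in sum against 5.95 to 6.33 at 9 months and 7.13 to 7.8 at 26 months. Of 9 tested, 8 were called lower at 9 months than at 1 month, against 1.47% of all genes. Cd79a, part of the B cell receptor, had 1.44, 0.192 and 0.225 RPKM, Ms4a1 was listed at 0 at both older ages and Pax5 at all ages, and the part of these cells in the level of Ccr6 was not tested.

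**Figure D4:**
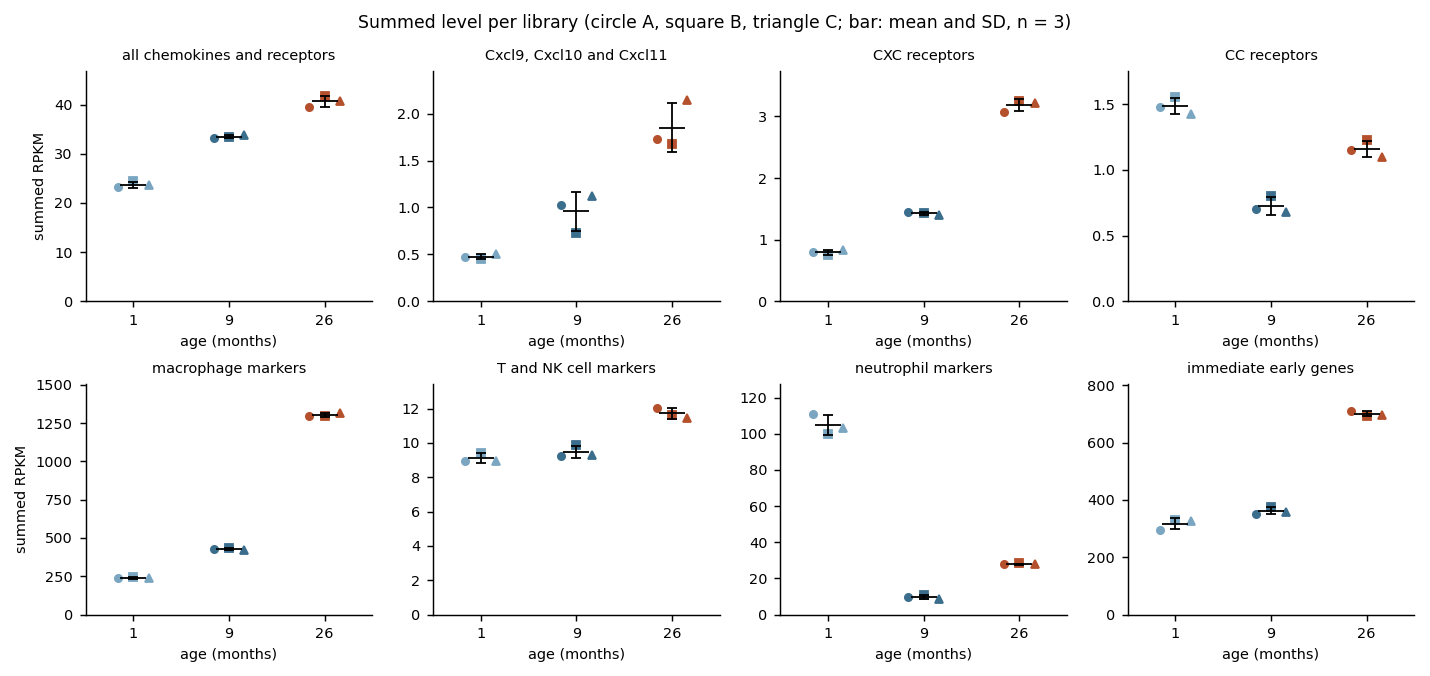
Summed RPKM per library of gene groups (top: all 52 genes, the Cxcr3 ligands, the CXC receptors and the CC receptors) and of marker lists (bottom: macrophage, T and NK cell, neutrophil, immediate early genes), on axes that start at 0; bars give the mean and SD of 3 libraries. The 52 genes sum to 23.7, 33.5 and 40.7 RPKM, and the macrophage markers and immediate early genes are also highest at 26 months.

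The inflammatory CC ligands as a group had their highest sum at 9 months, 6.86 ± 0.170 RPKM against 4.13 ± 0.350 at 1 month and 5.74 ± 0.427 at 26 months. Most of the 9-month sum was Ccl11, with 4.925 RPKM at 9 months against 1.74 at 1 month and 0.567 at 26 months. The 9-month peak was thus that of Ccl11 and not of the other ligands. Of the 11 tested, 6 were called higher and 1, Ccl11, lower at 26 than at 9 months, against 3.28% and 4.05% of all genes. Macrophage markers and immediate early genes had higher sums in the 26-month libraries. Against the same shares of all genes, 6 of the 22 macrophage markers were called higher at 26 than at 9 months, none lower and 16 were not called. The 22 summed to 236 to 245 RPKM at 1 month, 420 to 437 at 9 months and 1294 to 1315 at 26 months. Much of this sum was Lyz2, with 84.2, 258 and 946 RPKM, whereas Csf1r, the receptor that macrophages depend on, had 5.29 ± 0.224, 5.03 ± 0.353 and 5.58 ± 0.281 and was not called. For 4 of the 22 the mean was lower at 26 than at 9 months. These 4, chosen after their values were seen, were Mrc1, Cd163, Lyve1 and F13a1, markers of perivascular and other resident macrophages, all at or under 0.258 RPKM in mean, and Lyve1 had 0.125, 0.133 and 0.025 RPKM. No marker was listed at 0 in all libraries. Immediate early genes, which are switched on within minutes of a stimulus or of tissue handling, summed to 296 to 331, 351 to 377 and 694 to 711 RPKM. Of 19 tested, 10 were called higher and 1 lower between 26 and 9 months, again against 3.28% and 4.05% of all genes. Among them was Fos, with 1.46, 3.53 and 19.2 RPKM. The part of either in the chemokine levels was not tested.

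Genes that work with the chemokines were counted in the same fit, against the same 3.28% higher and 4.05% lower of all genes for 26 against 9 months. Of 11 other members of the chemokine family that passed the filter, 3 were called higher at 26 than at 9 months and none lower. These included Cx3cr1, the fractalkine receptor of microglia and macrophages, with 2.34, 1.64 and 3.77 RPKM, and Ccrl2, an atypical receptor that presents chemerin, with 1.25, 1.23 and 3.37. Cx3cl1, the ligand of Cx3cr1, was called higher at 26 months than at 1 month, with 2.58, 4.33 and 5.39 RPKM. The platelet chemokine Pf4 was called lower at both older ages than at 1 month, with 1.31, 0.192 and 0.325 RPKM.

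Of 26 genes of receptor signalling, 3 were called higher between 26 and 9 months and none lower. Rac2, a GTPase of blood cells, had 1.37, 0.35 and 1.23 RPKM and was called lower at 9 months and higher again at 26. Elmo1, a partner of Dock2 in cell movement, was called for 26 against 1 month, with 1.63, 2.53 and 4.73 RPKM, and Gnb2 and Arrb1, a G protein subunit and a beta-arrestin, for 9 against 1 month. Of 23 inducers of chemokine transcription, 4 were called higher between 26 and 9 months and none lower. Nfkbia, the NF-kappaB inhibitor that NF-kappaB itself induces, had 130 ± 7.50, 74.7 ± 8.16 and 156 ± 1.29 RPKM at the 3 ages, and its difference between 26 months and 1 month was not called. Nfkbiz had 0.725 ± 0.0661, 1.18 ± 0.116 and 2.47 ± 0.104 RPKM. Stat3 and the TNF receptor Tnfrsf1b were called for 26 against 1 month, with 8.46, 12.3 and 18.0 RPKM and with 1.36, 2.30 and 3.19 RPKM at the 3 ages.

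Heparan sulfate proteoglycans hold chemokines at surfaces, and proteases trim them. Of 22 such genes, 1 was called higher and 2 lower at 26 than at 9 months, the latter Gpc3, with 1.08, 2.01 and 0.758 RPKM at the 3 ages, and Hspg2 (perlecan), with 1.25, 2.95 and 0.908. Neither was called for 26 against 1 month. Hs6st1, which sulfates heparan chains, was called higher at both older ages than at 1 month, with 5.13, 15.7 and 16.2 RPKM, and the protease Mmp2 lower at 26 months than at 1 month, with 34.7, 29.9 and 17.0. Of 14 genes of leukocyte adhesion and passage, 3 were called higher and 1 lower at 26 than at 9 months. Itgb2, the shared chain of leukocyte integrins, had 0.875, 1.32 and 4.39 RPKM, and the junction gene Jam3 was the lower gene, with 16.8, 26.7 and 11.6. Vcam1, an endothelial adhesion molecule, had 0.958, 2.95 and 4.03 RPKM and was called higher at both older ages than at 1 month, and Pecam1 was called for 26 against 1 month, with 3.77, 7.40 and 7.81.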

How the data were processed

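Nextera libraries were prepared from cDNA amplified with SMARTer chemistry and sequenced on a HiSeq 2500, in 4 runs per library (36 entries in all). The authors mapped reads to the mouse genome (mm10, GRCm38) with CLC Genomics Workbench (version not given in the sources used here) and deposited 1 RPKM value per gene and library. For the oldest group, a notes sheet states 28 months, and the 26 months of the labels were used. Their own p-values and fold changes between ages were not used. The labels name trypsin and the study's methods collagenase as the enzyme of dissociation.

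With 1 mean per age, log2(RPKM + 0.1) of all 15806 genes was modelled in limma 3.58.1 (R 4.3.3) with a mean-variance trend, over all 9 libraries, and p-values were Benjamini-Hochberg adjusted over all genes. Such fold changes understate the change of low genes. Values for each library are given for members called in a comparison or reaching a mean of 1 RPKM, and ranges for the rest, except for results that are not reported here. Of each pathway list, at most 4 called genes are named, among those reaching a mean of 1 RPKM at some age. The members and gene lists were chosen with earlier results of these data known. Positions and overlaps come from GENCODE M21, which matched all 52 members. The method was tested on simulated data. Other pseudocounts, filters, scalings, thresholds, weights, blocks and left-out libraries were tried. Same-letter libraries did not deviate together (correlations of −0.05 to 0.23), so letters were not used as pairs. Tables and plots used Python 3.11.15, pandas 2.3.3, numpy 2.4.6 and matplotlib 3.10.9.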

Additional observations from a re-analysis of the deposited data

How the results depend on the processing

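The numbers of members called moved with the pseudocount, the filter on a mean of 1 RPKM and the fold threshold. With a pseudocount of 1 they were 2, 1 and 2 for 26 against 9, 9 against 1 and 26 against 1 month, and those of all genes 311, 453 and 564. With a pseudocount of 0.025, 13 members were called for 9 against 1 month. Among genes reaching a mean of 1 RPKM at some age, 2, 4 and 5 members were called, 9 passed the F-test, and 665 and 1275 of all genes were called for 26 against 9 and 26 against 1 month. Without the fold threshold, 24, 22 and 25 members and 9923, 11394 and 11674 of all genes were called. Array weights gave 11 members for 9 against 1 month.

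For 9 against 1 month, all genes called numbered 994 with quantile normalization (531 higher and 463 lower, against 1594 and 233), 1143 with median of ratios scaling (745 and 398) and 920 with the length trend removed (625 and 295). For 26 against 1 month the same scalings gave 802 and 742, 927 and 694, and 877 and 507, against 1569 and 396. The cause was not tested beyond the shift of the median that these scalings remove.

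Leaving out a library in turn gave 10 to 13, 7 to 9 and 15 to 17 members, and 28 to 30 by the F-test. With the library letter as a replicate block, 13, 7 and 15 members and 1162, 1827 and 1966 of all genes were called, with 29 and 13716 by the F-test, and none of the 35 called results of single members changed; the letters share only a name. Over these 35 results and 24 alternatives, 762 of 816 values kept direction and call, 54 lost the call, 30 of them with a pseudocount of 1, and 0 reversed.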
